A study of Homo sapiens with 6 samples.

Results

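The 36 genes are transcriptional outputs of the RAS-RAF-MEK-ERK kinase cascade, its feedback regulators, factors that carry its signal, or phosphatases of JNK and p38. They comprise 10 MAP kinase phosphatases, 6 Sprouty and SPRED adaptors, 5 ETS factors, 6 AP-1 subunits and 9 EGR, IER and other early response genes. They were chosen by symbol, out of 19771 genes named by a probe. 35 of them had a probe (DUSP8 had none), and 33 were bright enough to be tested beside 12766 tested genes in all. Expression was measured in MDA-MB-231, an invasive triple-negative human breast cancer cell line, in which 1 stable line (MB-231-maspin) carries the serine protease inhibitor maspin joined through a P2A peptide to the green fluorescent protein ZsGreen, and the other (MB-231-control) has only ZsGreen. Each line pools the clones that survived blasticidin. RNA of each line was labelled with Cy5 and hybridized to 3D-Gene oligonucleotide chips in a single colour, with 3 arrays per line. The sources used here do not say whether the 3 came from separate cultures, so the p-values measure only the spread between these arrays, which may be technical.

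When growth factor receptors or mutant RAS activate ERK, the kinase phosphorylates ETS factors of the ELK type, which sit with serum response factor on the promoters of immediate early genes. These genes (FOS, EGR1, IER2 and others) are transcribed within minutes without new protein synthesis, and their products, many of them transcription factors, switch on a second wave of genes. Part of that wave shuts the signal down: dual-specificity phosphatases remove the phosphates from ERK, JNK or p38, and Sprouty and SPRED proteins block the steps between the receptor and RAF. The summed mRNA of such output and feedback genes is widely used as a readout of pathway output. MDA-MB-231 is known to carry activating mutations in this cascade.

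No gene of the set passed the adjusted threshold, and every fold change was small. Values are given as the authors' normalized intensity, in which each array's median is 25, and differences as log2 fold changes, MB-231-maspin minus MB-231-control, fitted with limma over all 12766 genes with Benjamini-Hochberg adjustment. At an adjusted p under 0.05, 0 of the 33 genes were called, where 0.854% of all genes were (109, of which 68 were higher and 41 lower). At an unadjusted p under 0.05 there were 3 of 33 (9.09%), against 13.3% of all genes, 9.49% higher and 3.84% lower in MB-231-maspin. They were IER3 and EGR1, both higher, and ETV1, lower. The 3 maspin arrays lay wholly above or below the 3 control arrays for 8 of 33 genes (24.2%), against 20.7% of all genes. IER3, EGR1 and SPRY1 were the 3 that lay above, where 13.8% of all genes did, and ETV1, EGR3, FOS, DUSP16 and PHLDA2 were the 5 that lay below, where 6.87% did. The methods' t-test also called 0 of the 33 after adjustment, and 4 (12.1%) before it, against 0.164% and 13.8% of all genes. Taking both directions together, the shares of the set stood near those of all genes.

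The median log2 fold change was -0.02 over the 33 genes and 0.04 over all genes, with 14 of the 33 (42.4%) above 0 against 59.9% of all genes. The 95% interval of every one of the 33 genes lay inside 1.5-fold in either direction, as did that of 91.8% of all genes. The outermost bounds in the set were -0.58 for SPRY2 and 0.58 for IER3. None of the 33 had a fold change past 1.5, and 0.869% of all genes did. With 3 arrays against 3, an exact permutation test on a single gene cannot give a p under 0.1.

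**Figure D1:**
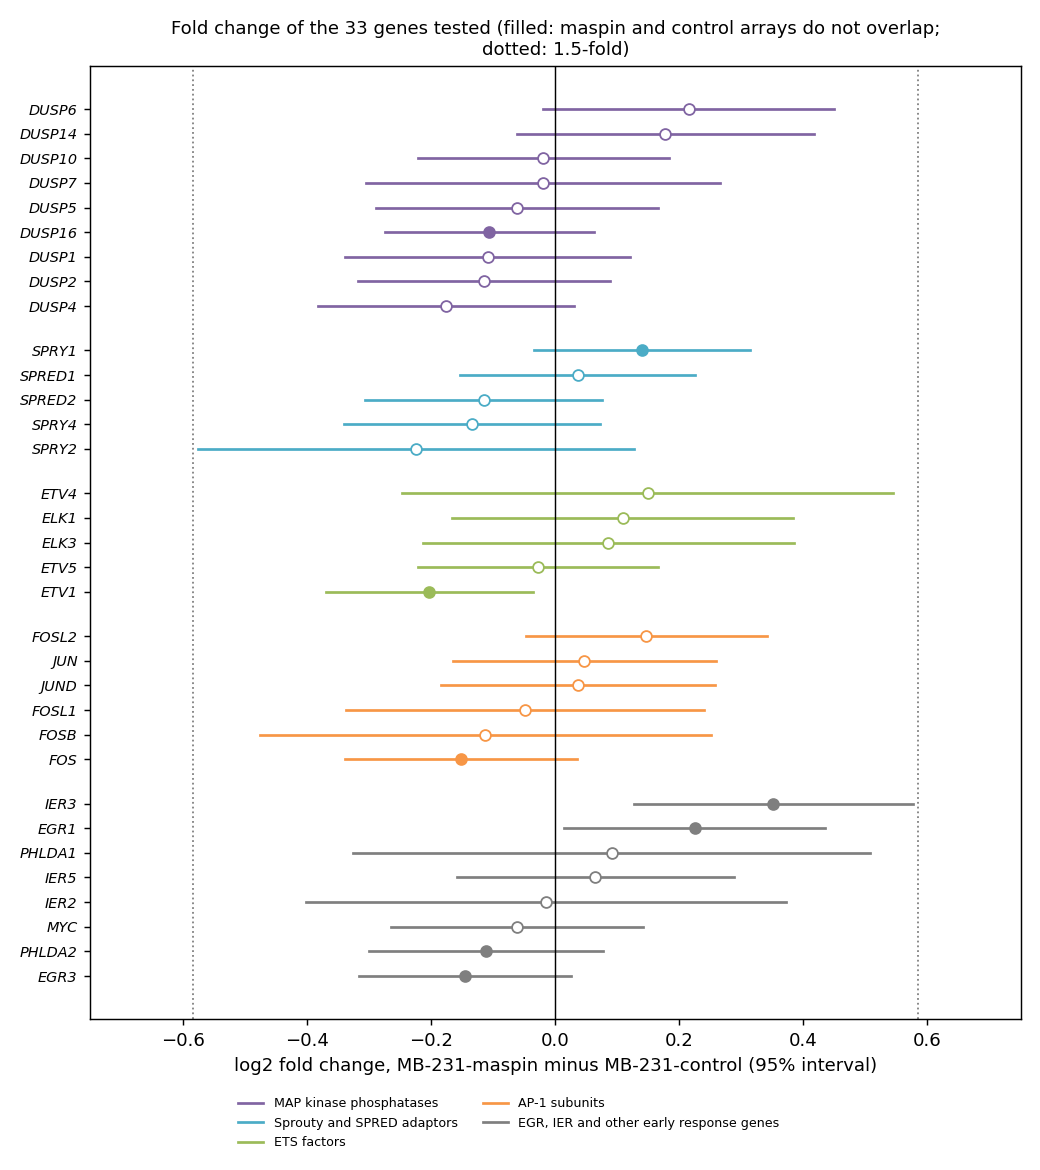
Log2 fold change (MB-231-maspin minus MB-231-control, horizontal axis) of the 33 tested genes, grouped by role, with 95% intervals from limma as lines. Filled points are the 8 genes whose maspin and control arrays do not overlap, and dotted lines mark 1.5-fold. Every interval ends inside those lines, and those of IER3, EGR1 and ETV1 leave out 0.

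The count of 0 held in 15 of the 17 alternative settings and not in the other 2. Under array weights, which give each array a weight from its own noise, limma called 2728 genes (21.4% of all), among them 6 of the 33 (18.2%): IER3, EGR1, DUSP6 and DUSP14, higher, and DUSP2 and EGR3, lower. With normexp background correction and quantile normalization it called 239 genes (1.87%), among them IER3 alone of the set (adjusted p = 0.0215). Quantile normalization put 59.2% of the unadjusted calls over all genes above 0, and normexp 52.7%, against 71.2% with the authors' scaling.

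The arrays were alike in depth of signal, with a median raw intensity of 100.02 to 115 and 87.1% to 91.3% of the 24460 gene probes above background. The control arrays differed more among themselves than the maspin arrays: control replicate 2 was the highest of the control arrays for 25 of the 33 genes (75.8%; 71.4% of all genes) and control replicate 3 the lowest for 23 (69.7%; 71.7%). Without control replicate 2, 19 of the 33 genes lay above 0 and the count at an unadjusted p under 0.05 was 9 (27.3%, against 26.0% of all genes), with the median at 0.03. Without control replicate 3, 10 lay above 0, 3 passed that p (9.09%, against 12.7% of all genes) and the median was -0.08. The median of all genes moved along with it, to 0.09 and -0.03. The probe for SERPINB5, the gene of maspin, did not set the lines apart in the way the labels would have it: it read 4.20, 2.79 and 4.40 on arrays labelled MB-231-maspin and 5.10, 5.61 and 4.11 on arrays labelled MB-231-control (log2 fold change -0.40, adjusted p = 0.546 with no filter on low values). All 6 values were below the minimum of 10, and where the probe lies relative to the introduced sequence is not given in the sources used here. The study also measured maspin in both lines by RT-qPCR and western blot, which are not analysed here. The terms maspin arrays and control arrays follow the labels. Of 6 defining markers of the line, VIM (11687 to 13757), CD44, AXL, CAV1 and MSN lay far above the array median of 25 on every array, and SPARC lay below it (11.6 to 15.0). Among markers of other cell types, luminal KRT18 (3181 to 4361) and EPCAM (93.1 to 118) were also above it. So were basal KRT14 (170.0 to 193) and KRT5 (46.3 to 55.1), and fibroblast DCN (54.6 to 67.9) and PDGFRB (26.4 to 37.7). Luminal GATA3 (20.9 to 28.6) and FOXA1 (24.2 to 26.5) lay near it. ESR1 was blank on all arrays. Luminal PGR, basal TP63 and fibroblast COL1A1 lay between 0.954 and 2.035 where not blank, and leukocyte markers between 1.06 and 6.44.

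**Figure D2:**
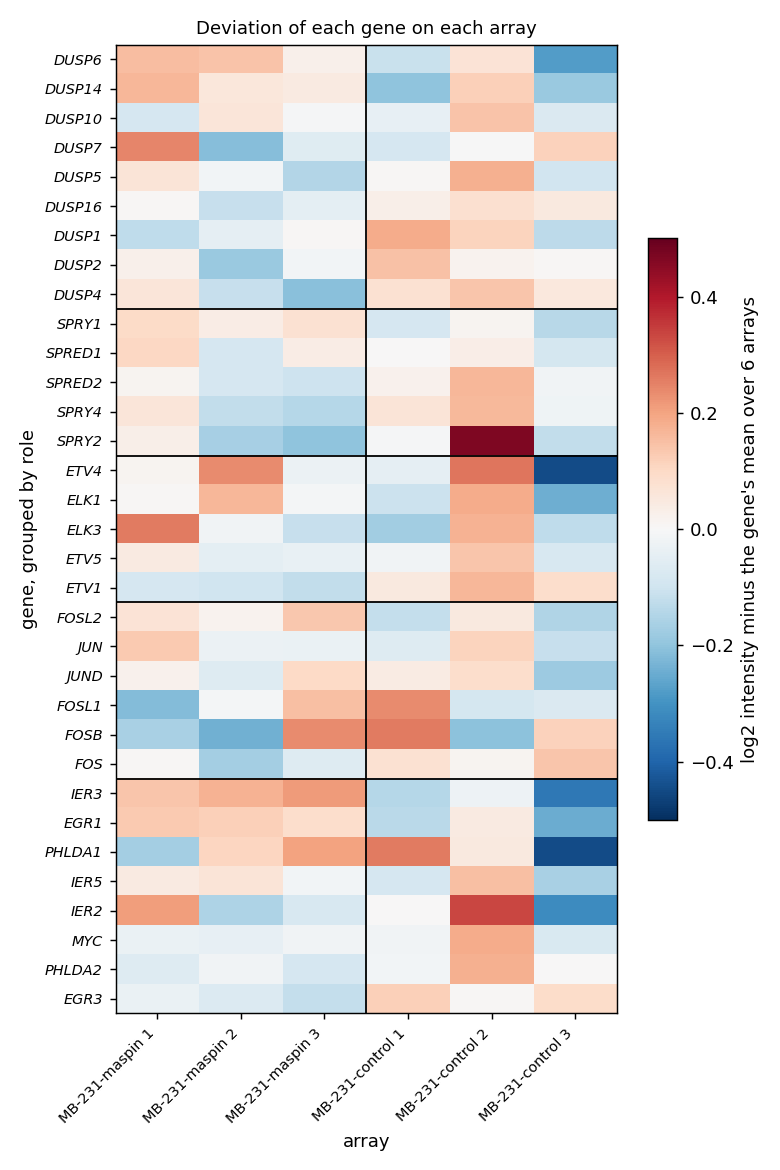
Log2 intensity of the 33 genes (rows, grouped by role) on the 6 arrays (columns, maspin left, control right), minus each gene's mean over the 6 arrays. The column of control replicate 2 is mostly red (median deviation 0.11) and that of control replicate 3 mostly blue (median -0.09), while the median deviation on the 3 maspin arrays runs from -0.04 to 0.03.

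The MAP kinase phosphatases had a median log2 fold change of -0.06 over 9 tested genes, and none reached an unadjusted p under 0.05. Of the 9, 7 lay below 0, where 5118 of all 12766 genes did. DUSP6, a cytoplasmic phosphatase specific for ERK and among the most direct transcriptional readouts of the cascade, had intensities of 2126, 2113 and 1948 on the maspin arrays and 1772, 2003 and 1576 on the control arrays. The brightest control array lay above the dimmest maspin array, and the difference was 0.21 ± 0.10 (SE; 95% interval -0.02 to 0.45, limma adjusted p = 0.413). With one array left out at a time it ran between 0.13 and 0.30. DUSP14, an atypical small phosphatase, had the other positive value, at 637, 590 and 585 against 494, 617 and 499 (0.18, interval -0.06 to 0.42). In both genes control replicate 2 was the array that overlapped the maspin values.

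The 4 nuclear inducible phosphatases all lay below 0 in the main setting, with a median of -0.11, and in each the groups overlapped. DUSP4, which acts on ERK in the nucleus, measured 303, 269 and 252 on the maspin arrays and 307, 321 and 302 on the control arrays. Its difference of -0.18 (interval -0.38 to 0.03, adjusted p = 0.440) rested on maspin replicates 2 and 3, since maspin replicate 1 lay among the controls. DUSP1, which removes phosphate from p38, JNK and ERK, read 133, 141 and 146 against 165, 157 and 132 (-0.11, interval -0.34 to 0.12). DUSP2, at 34.7, 30.0 and 33.8 against 37.8, 34.5 and 34.3, differed by the same amount (-0.11, interval -0.32 to 0.09). DUSP5, the nuclear phosphatase specific for ERK, was at 664, 629 and 573 against 637, 718 and 594 (-0.06, interval -0.29 to 0.17). Without control replicate 2 its difference was 0.01.

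DUSP7 and DUSP10 lay near 0, with overlapping groups. DUSP7, the cytoplasmic relative of DUSP6, gave 14.4, 10.5 and 11.7 against 11.5, 12.2 and 13.2 (-0.02). DUSP10, which acts on JNK and p38, gave 133, 147 and 141 against 137, 156 and 135 (-0.02). DUSP16, a further JNK and p38 phosphatase, was the single phosphatase with separate groups: its maspin arrays read 19.4, 17.8 and 18.6 and its control arrays 19.7, 20.4 and 19.98, a difference of -0.11 (interval -0.28 to 0.06, adjusted p = 0.566). A second DUSP16 probe gave the same difference of -0.11, but there the maspin values of 18.7, 17.5 and 16.5 overlapped the control values of 18.7, 20.4 and 17.8.

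The Sprouty and SPRED adaptors, which hold back RAS and RAF activation, had a median of -0.12 over 5 tested genes. SPRY1 had 39.7, 38.2 and 39.2 on the maspin arrays and 35.1, 37.5 and 33.8 on the control arrays. All maspin values were above all control values, by 0.14 ± 0.08 (SE; interval -0.04 to 0.31, adjusted p = 0.472). SPRY2 went the other way, at 167, 146 and 142 against 163, 226 and 150, with the lowest bound of any gene in the set (-0.23, interval -0.58 to 0.13). That value rested on 1 array: control replicate 2 stood well above the other 5, and without it the difference was -0.05. The remaining adaptors had overlapping groups. SPRY4 measured 96.8, 85.3 and 84.2 against 96.9, 104 and 91.5 (-0.13), with a second probe at the same -0.13. SPRED2 was at 134, 126 and 124 against 135, 149 and 131 (-0.12). SPRED1 was at 83.9, 73.7 and 80.1 against 78.3, 79.9 and 73.4 (0.04). SPRED3 stayed under the minimum, with 9.23, 7.74 and 8.54 against 8.26, 8.69 and 7.81, and was not tested.

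**Figure D3:**
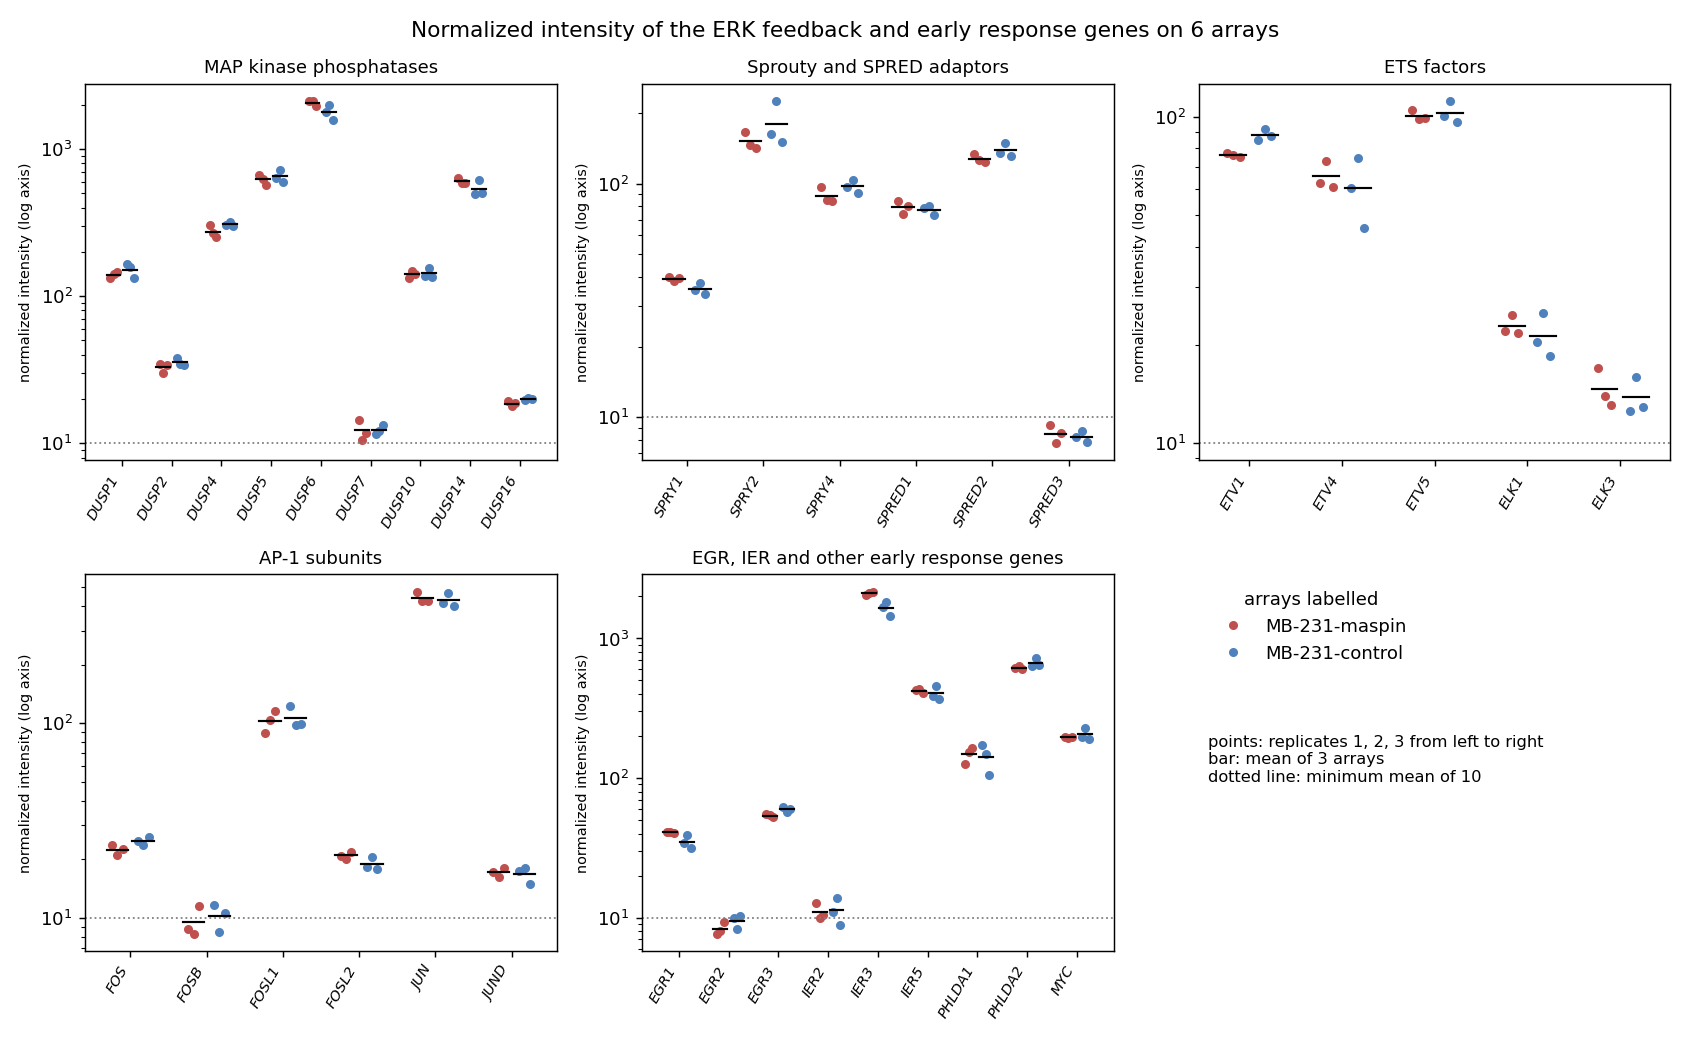
Normalized intensity (vertical log axis) of the 35 genes with a probe on the 3 maspin arrays (red, left of each pair) and the 3 control arrays (blue, right), with bars at the group means and a dotted line at the minimum mean of 10. Levels of different probes cannot be compared; within a gene the 2 groups lie close together, and both group means of EGR2 and SPRED3 fall below the line.

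Among the ETS factors, 3 of 5 lay above 0 and the median was 0.09. ETV1, a PEA3-family factor that ERK can activate by phosphorylation, measured 77.4, 76.5 and 75.3 on the maspin arrays and 84.9, 91.9 and 87.2 on the control arrays. Its probe is annotated to a predicted transcript that is not listed in the RefSeq annotation used here. The groups did not overlap, and the difference was -0.20 ± 0.07 (SE; interval -0.37 to -0.04, limma adjusted p = 0.279), or 0.869 times the control level. Its p before adjustment was no longer under 0.05 without maspin replicate 2 (-0.20) or without maspin replicate 3 (-0.19). In the 2 other PEA3 factors the groups overlapped. ETV4 had 62.8, 73.3 and 61.0 against 60.3, 75.0 and 45.6 (0.15, interval -0.25 to 0.54). ETV5 had 105, 98.5 and 99.2 against 101, 112 and 96.4 (-0.03, interval -0.22 to 0.17). Whether ETV1 differed from ETV4 or ETV5 was not tested.

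The ternary complex factors, which carry the ERK signal to serum response factor, had overlapping groups. ELK1 measured 22.1, 24.6 and 21.8 against 20.4, 25.0 and 18.5 (0.11, interval -0.17 to 0.38), with 0.21 at a second, dimmer probe. ELK3, a factor of the same class that can also repress, measured 16.9, 13.98 and 13.1 against 12.5, 16.0 and 12.95 (0.09, interval -0.21 to 0.38).

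The AP-1 subunits, which pair as FOS-JUN dimers, were split 3 above and 3 below 0, with a median of -0.01. FOS, the classical immediate early gene, differed between its 2 probes. Its brighter probe, annotated to the genomic record NG_029673.1 and not to a transcript, read 23.6, 20.9 and 22.5 on the maspin arrays and 24.8, 23.7 and 25.9 on the control arrays, with no overlap (-0.15, interval -0.34 to 0.03, adjusted p = 0.463). The probe for the FOS transcript NM_005252.3 read 13.2, 11.7 and 10.7 against 12.1, 13.1 and 10.2 (0.01, interval -0.26 to 0.28), fully interleaved. The transcript probe showed no separation of the groups.

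FOSL1, the FRA-1 subunit that is prominent in mesenchymal breast cancer lines, measured 89.6, 103 and 115 on the maspin arrays and 122, 97.8 and 98.9 on the control arrays (-0.05, interval -0.34 to 0.24). The groups overlapped over most of their range. FOSL2, which encodes FRA-2, was at 20.8, 20.1 and 21.8 against 18.3, 20.6 and 17.9 (0.15, interval -0.05 to 0.34). JUN gave 476, 426 and 425 against 416, 469 and 401 (0.05, interval -0.16 to 0.26). In both genes the values interleaved. JUND, the AP-1 partner that is present in resting cells, read 17.1, 16.1 and 18.1 against 17.4, 18.0 and 14.9 (0.04, interval -0.18 to 0.26). FOSB, another partner of the JUN proteins, was near the lower limit, at 8.70, 8.24 and 11.5 against 11.7, 8.46 and 10.6 (-0.11, interval -0.48 to 0.25). It exceeded the brightest negative control spot on 5 of 6 arrays.

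The EGR, IER and other early response genes held both of the higher genes at an unadjusted p under 0.05, and 4 of their 8 tested members had separate groups, 2 in each direction (20.7% of all genes did, 13.8% higher and 6.87% lower). IER3, a short-lived protein that is phosphorylated by ERK and protects cells from apoptosis, had intensities of 2062, 2111 and 2171 on the maspin arrays, against 1695, 1837 and 1461 on the control arrays. All 3 maspin values lay above the control values, and the means of 2115 ± 54.7 and 1664 ± 189 (SD, n = 3 each) gave a log2 fold change of 0.35 ± 0.10 (SE; interval 0.13 to 0.58), or 1.28-fold (limma adjusted p = 0.181). Leaving out each array in turn gave 0.26 to 0.43. No other of the 33 genes had a larger difference.

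EGR1, a zinc finger factor induced within minutes of ERK activation, had 41.2, 40.9 and 40.1 on the maspin arrays and 34.4, 38.9 and 31.7 on the control arrays. The maspin arrays were tightly grouped (40.7 ± 0.582, SD, n = 3) above a wider control group (35.0 ± 3.64), with a difference of 0.22 ± 0.09 (SE; interval 0.01 to 0.44, adjusted p = 0.341). With 1 array left out, the p before adjustment stayed under 0.05 only without control replicate 2 (0.30) and not without any of the other 5 arrays (0.16 to 0.24). EGR3, a related factor, lay below its control arrays without overlap, with 55.4, 54.0 and 52.2 against 61.6, 56.9 and 60.4 (-0.15, interval -0.32 to 0.02, adjusted p = 0.441). EGR2 was under the minimum, at 7.63, 8.04 and 9.26 against 9.88, 8.29 and 10.3, and was not tested.

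The promoters of 27 of the 36 genes were found in RefSeq (GRCh38.p14), as 41 windows of 250 bases before a start site, and were searched on both strands for 5 motifs. The CArG box, the binding site of serum response factor, occurred in 2 of the 41 windows (4.88%), those of EGR1 and EGR2, against 1.16% of 35116 windows of all genes. The cAMP response element TGACGTCA occurred in 3 (7.32%; DUSP1, DUSP8 and JUND), against 1.65%. The EGR site, as GCGGGGGCG or GCGTGGGCG, occurred in 3 (7.32%; DUSP2, SPRY1 and SPRY2), against 5.37%, the AP-1 site, as TGACTCA or TGAGTCA, in 1 (2.44%; SPRED3), against 4.20%, and the ETS site CCGGAAGT in 0, against 3.42%. No match overlapped another. The windows of EGR1 (chr5:138465229-138465478, plus strand) and DUSP1 (chr5:172771196-172771445, minus strand) are shown as an early response gene and a feedback gene that the cascade induces, 5′ to 3′ and ending at the base before the start site. Capitals mark 2 CArG boxes in EGR1, at positions -105 to -96 and -83 to -74 from the start, and 1 cAMP response element in DUSP1, at -125 to -118.
EGR1: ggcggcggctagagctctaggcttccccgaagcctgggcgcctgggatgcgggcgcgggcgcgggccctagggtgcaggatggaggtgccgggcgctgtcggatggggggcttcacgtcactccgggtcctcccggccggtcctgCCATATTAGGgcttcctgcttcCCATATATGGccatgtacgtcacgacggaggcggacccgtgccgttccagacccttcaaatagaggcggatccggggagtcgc
DUSP1: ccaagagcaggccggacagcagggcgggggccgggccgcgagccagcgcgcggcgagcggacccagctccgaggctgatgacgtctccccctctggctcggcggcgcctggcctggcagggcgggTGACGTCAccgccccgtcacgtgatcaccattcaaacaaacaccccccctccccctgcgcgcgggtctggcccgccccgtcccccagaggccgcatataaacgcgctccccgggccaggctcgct
A match is a description of the letters only. The log2 fold change was 0.22 for EGR1 and -0.11 for DUSP1, and neither passed the adjusted threshold.

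PHLDA2, an imprinted growth suppressor with a pleckstrin homology domain, was the last gene with separate groups, at 612, 632 and 604 on the maspin arrays and 634, 724 and 642 on the control arrays (-0.11, interval -0.30 to 0.08, adjusted p = 0.590). The gap between the highest maspin and the lowest control value was small beside the control spread. PHLDA1, its relative, varied widely in both groups, at 127, 154 and 164 against 171, 148 and 105 (0.09, interval -0.33 to 0.51). MYC, the growth-promoting factor that ERK stabilizes, had 196, 195 and 198 on the maspin arrays, within the range of the control arrays at 198, 228 and 190 (-0.06, interval -0.27 to 0.14). In PHLDA1 and MYC, and likewise in IER5 and IER2, the groups overlapped. IER5, induced by stress and growth factors, measured 426, 431 and 409 against 389, 459 and 369 (0.06, interval -0.16 to 0.29). IER2, an immediate early nuclear protein, measured 12.7, 9.91 and 10.4 against 11.04, 13.9 and 8.85 (-0.01, interval -0.40 to 0.37). Those values come from a probe without a RefSeq annotation. The second probes of IER2, PHLDA1 and MYC stayed under the minimum. That of IER2, the probe annotated to its transcript, read 6.14, 3.77 and 5.10 against 5.24, 4.61 and 4.57 and was not tested.

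**Figure D4:**
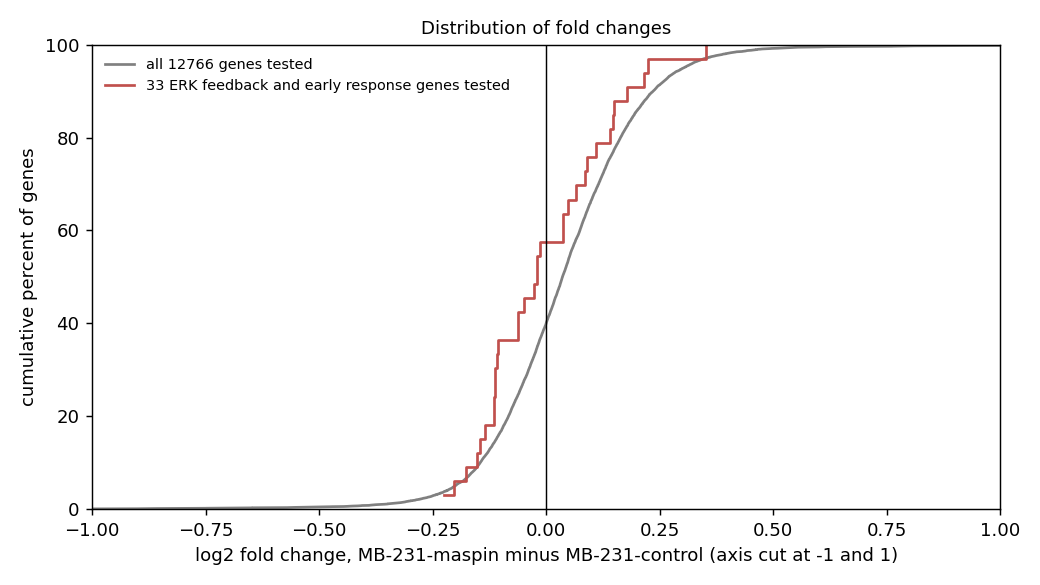
Cumulative percent (vertical axis) of log2 fold changes (horizontal axis, MB-231-maspin minus MB-231-control, cut at -1 and 1) for the 33 tested genes of the set (red) and all 12766 tested genes (grey). The red line crosses 0 with 19 of 33 genes below it, and lies within -0.23 to 0.35.

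Genes listed for the core cascade, its regulators and its target kinases were not called either. Of 30 listed members of the RAS-RAF-MEK-ERK core, 28 were tested and 0 passed the adjusted threshold. At an unadjusted p under 0.05 there were 3 (10.7%), all higher, against 13.3% of all genes, 9.49% higher and 3.84% lower. The median of the list was 0.09, against 0.04 over all genes. RPS6KA5, an ERK and p38 target kinase that phosphorylates histone H3 at early genes, measured 63.7, 67.0 and 62.1 on the maspin arrays and 51.8, 61.7 and 46.7 on the control arrays (0.27, adjusted p = 0.333). BRAF measured 11.2, 10.8 and 11.3 against 7.74, 11.2 and 6.38 (0.43, adjusted p = 0.355), with control replicate 2 inside the maspin range.

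Of 20 genes listed as JNK and p38 kinases, MAP2K5 and MAPK7 among them, 15 were tested and 0 were called. In that list 2 (13.3%, the share of all genes) had an unadjusted p under 0.05, with a median of 0.12. These were MAP2K4, a kinase that activates JNK, at 136, 137 and 146 against 116, 120 and 101 (0.32, adjusted p = 0.185), and MAPK14, p38 alpha. MAPK14 measured 224, 208 and 197 against 173, 185 and 169 (0.26, adjusted p = 0.234). Of 14 other DUSP phosphatases, 11 were tested, 0 were called and 1 (9.09%, against 13.3% of all genes) had an unadjusted p under 0.05. It was DUSP28, at 20.2, 21.3 and 25.2 against 30.8, 24.8 and 27.4 (-0.32, limma adjusted p = 0.289). DUSP9 came next in that list, with -0.12 (adjusted p = 0.522).

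Of 30 other genes of the immediate early, serum response factor and AP-1 programme, 24 were tested, 0 were called, and 2 higher and 3 lower genes (20.8% in all, against 13.3% of all genes, 9.49% higher and 3.84% lower) had an unadjusted p under 0.05, with a median of -0.00. RGS2, a regulator that shortens G protein signalling, measured 62.1, 60.4 and 58.2 on the maspin arrays and 78.9, 87.5 and 73.7 on the control arrays (-0.41, interval -0.61 to -0.21, limma adjusted p = 0.106). EMP1, an epithelial membrane protein, measured 508, 510 and 525 against 624, 643 and 632 (-0.30, interval -0.46 to -0.14, adjusted p = 0.127). CTGF, a secreted matricellular protein, measured 1923, 1745 and 1654 against 1176, 1417 and 830.4 (0.67, interval 0.26 to 1.08, adjusted p = 0.171). It was chosen after its values were seen, as the gene of this list with the largest difference. In these 3 genes, picked for their p or their size, the groups did not overlap, and none passed after adjustment. Over the list, 9 of 24 genes (37.5%) had separate groups, 3 higher and 6 lower. Of all genes 20.7% did, 13.8% higher and 6.87% lower.

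Early response genes also react to the handling of cells. Of 15 heat shock and handling stress genes, all were tested, 0 were called, and 5 higher and 1 lower gene (40.0%, against 13.3% of all genes) had an unadjusted p under 0.05, with a median of 0.12. DDIT3, a stress-induced transcription factor, measured 290, 275 and 273 on the maspin arrays and 360, 416 and 355 on the control arrays (-0.43, adjusted p = 0.0912), and PPP1R15A, a phosphatase subunit that reverses translational arrest, 51.7, 52.6 and 51.3 against 44.3, 47.2 and 39.9 (0.25, adjusted p = 0.261). The heat shock genes HSPA1B (0.55, adjusted p = 0.292) and HSPA1A (0.54, adjusted p = 0.355) had larger differences, and were picked after their values were seen. HSPA1B read 636, 731 and 799 on the maspin arrays and 592, 577 and 346 on the control arrays, without overlap, and HSPA1A 392, 577 and 522 against 339, 457 and 246, with overlap. They encode near-identical proteins, so their probes may share signal. These values stand beside the differences of IER3 and EGR1, and their part in those was not tested. The methods' t-test called 0 genes of any of these 5 lists after adjustment, against 0.164% of all genes. Before adjustment it called 13.8% of all genes. The counts then were 2 of 28 in the RAS-RAF-MEK-ERK core and 4 of 15 in the JNK and p38 list. They were 0 of 11 for the other DUSP phosphatases, 8 of 24 for the other early genes and 3 of 15 for the stress genes.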

How the data were processed

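Total RNA of MB-231-maspin and MB-231-control was measured on 6 arrays, taken as 2 groups from the sample labels. Per spot, the authors deposited the raw intensity, the intensity after subtraction of the background mean, and the intensity normalized to an array median of 25, left blank at or below background. A deposited summary table, treated as a score and used only as an alternative, gives the normalized values as whole numbers (at most 0.5 apart). No column of the authors' own comparisons was used. The members and the lists were chosen with earlier results of these data known.

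Among 24460 gene probes, 33 symbols corrupted to dates were recovered by Entrez identifier. The brightest probe stood for each gene. For DUSP4, DUSP10, SPRED1, ETV1, ETV4, ELK3, EGR2 and EGR3 it was annotated to a predicted transcript not listed in the RefSeq annotation used here. For FOSL1 and SPRED3 it was annotated to a non-coding transcript record of the gene. The minimum of the study was kept (a mean over 10 in MB-231-maspin or MB-231-control), with a value required on 2 or more arrays per group. For the 12766 genes left, limma 3.58.1 (lmFit, eBayes, two-sided; R 4.3.3) was run on log2 intensities, with Benjamini-Hochberg adjustment over all of them at 0.05. The code was tested on simulated data. Single values come without counting error; the number of arrays limits their precision. All 36 members are named, and SERPINB5. Of each further list, the members past the adjusted threshold are named, or otherwise up to 2 with the smallest p. CTGF, HSPA1A and HSPA1B were added after their values were seen. Alternatives were quantile normalization, normexp with an offset of 50, log2(value + 10), no filter and a mean above 50, an intensity trend, array weights, the methods' t-test, the rounded table, the replicate number as a block, every probe by itself, and each array left out in turn. No slide or scan date was used here. Python 3.11.15, pandas 2.3.3 and matplotlib 3.10.9 served for motifs and figures.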

Additional observations from a re-analysis of the deposited data

How the results depend on the processing

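Over 17 alternatives, 549 values of single genes of the set were recomputed: 511 kept their direction and side of the adjusted threshold, 7 newly passed it and 31, over 14 genes, changed sign, none of them larger than 0.15 on the log2 scale. The number of genes of the set called was 1 with normexp and 6 with array weights, against 0 in the main setting and in the others. The number with an unadjusted p under 0.05, 3 in the main setting, was 7 with quantile normalization (21.2%, against 15.7% of all genes), 11 with normexp (33.3%, against 17.9%), 15 with array weights (45.5%, against 36.8%) and 1 to 9 with 1 array left out (3.03% to 27.3%, against 7.79% to 26.0%). Over all genes, 109 calls became 239 with normexp, 55 with no filter, 43 with a mean above 50, 2728 with array weights, 21 with the t-test of the methods (1760 before adjustment) and 29 to 222 with 1 array left out, where removing control replicate 2 gave 222, control replicate 3 gave 172, control replicate 1 gave 45, and maspin replicates 1, 2 and 3 gave 32, 29 and 31. The causes were not tested. The median of the set stayed within -0.08 to 0.03.

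The genes that changed sign were at most 0.09 from 0 in the main setting, except ETV4, at 0.15, which was at -0.04 without control replicate 3. With quantile normalization the log2 fold change was 0.0004 for DUSP7, 0.0077 for IER2 and -0.012 for JUN. With normexp it was -0.0072 for SPRED1, -0.022 for JUN and -0.0007 for IER5. With array weights it was 0.048 for DUSP10, -0.013 for SPRED1, -0.029 for JUND and -0.12 for PHLDA1. With 1 array left out it ran from -0.12 to 0.013 for DUSP5, -0.15 to 0.081 for DUSP7, -0.060 to 0.048 for DUSP10, -0.0064 to 0.087 for SPRED1, -0.038 to 0.32 for ETV4, -0.074 to 0.034 for ETV5, -0.023 to 0.19 for ELK3, -0.14 to 0.056 for FOSL1, -0.0076 to 0.11 for JUN, -0.045 to 0.090 for JUND, -0.18 to 0.15 for IER2, -0.0013 to 0.16 for IER5, -0.11 to 0.24 for PHLDA1 and -0.12 to 0.016 for MYC.

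The labels give both groups the replicate numbers 1 to 3. Same-numbered arrays did not all deviate together: over 12761 genes the correlation was -0.367 for replicate 1, 0.483 for replicate 2 and 0.195 for replicate 3. The sign was mixed, and the numbers were not taken as pairs. With the replicate number as a block, 117 genes (0.916%) were called, 0 of them in the set. In that setting 4 of the set (12.1%, against 13.9% of all genes) had an unadjusted p under 0.05, and the median was -0.02. Genes of the set near background, such as FOSB, are limited by signal: the brightest negative control spot reached 9.35 on control replicate 2 and 2.58 to 3.76 on the other arrays.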
